A study of Homo sapiens with 16 samples.

Results

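The genes described here are 49 human genes of the G1/S transition and of DNA replication, out of 58051 genes in the count table. They were taken as a list of gene symbols for origin licensing, helicase activation, DNA polymerases, clamp loading, fork protection, chromatin assembly and G1/S regulation, by a rule that uses no measured value of these genes, and each symbol matched a row of the table through its Ensembl identifier. The list was nonetheless chosen with earlier results of these data known, so its shares of calls are a description. RNA-seq had been done on LNCaP, an established androgen-responsive line of human prostate cancer cells, in 4 groups of 4 libraries. In the knockdown experiment transfection had been with the Allstar control siRNA (siCtrl) or an siRNA against XBP1 (siXBP1), and in the inhibitor experiment they had been kept for 24 h with DMSO (Vehicle) or with 10 μM MKC8866, which blocks the RNase of IRE1α. Cells of all 4 groups then received 30 nM thapsigargin, an inhibitor of the calcium pump of the endoplasmic reticulum (ER), for 3 h, so no group was free of ER stress and the groups were compared under it. The libraries came from a single cell line, and the labels do not say whether libraries with different numbers came from separate cultures, so the p-values measure the spread between these libraries, which may be technical. The comparisons ask how the loss of the XBP1 transcript, or of the IRE1α activity that splices it, changed these genes.

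DNA replication is prepared in G1, when the origin recognition complex, CDC6 and CDT1 load the MCM2 to MCM7 ring onto origins, and geminin keeps CDT1 from loading it again in S phase. At the G1/S transition cyclin E kinase and the DBF4-dependent kinase CDC7 turn the ring into the active helicase by adding CDC45 and the GINS complex, and the polymerases, the PCNA clamp and its loader then copy both strands. Many of these genes are transcribed in a burst at the end of G1 by E2F factors, so that in cultured cells their RNA follows proliferation. In bulk RNA, fewer cells in a phase of the cycle and less RNA per cell cannot be told apart.

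Between 28713607 and 34509488 fragments were counted per library, and no member was near the floor: the lowest count of any member in any library was 179, for POLE2, and the highest 11716, for POLD2. All 49 members passed the filter on low counts in every comparison. Levels of a gene across libraries are given as CPM, the fragment count scaled to libraries of equal effective size. XBP1 itself stood at 359 to 421 CPM in siCtrl and at 51.2 to 54.2 in siXBP1. MKC8866 libraries had 536 to 619 CPM and Vehicle libraries 482 to 539. XBP1 was called higher with MKC8866 (log2 fold change 0.20, Benjamini-Hochberg adjusted p = 0.00493, edgeR quasi-likelihood test). A count of the whole gene does not separate spliced from unspliced XBP1, so splicing cannot be read from it. All 9 luminal prostate markers were expressed in every group, and the leukocyte markers summed to at most 0.0912 CPM and the basal markers to at most 1.46 CPM. The summed CPM of the luminal markers was 3879 to 4050 in siCtrl, 3285 to 3386 in siXBP1, 3849 to 4049 in Vehicle and 4213 to 4386 in MKC8866, and the part of this shift in the results below was not tested. For fibroblast markers, 3 of 4 lay below 1 CPM, the sum coming from COL1A1, and the 4-gene sum ranged from 25.6 to 33.8 in siCtrl, 31.0 to 34.1 in siXBP1, 27.8 to 36.8 in Vehicle and 25.2 to 30.7 in MKC8866. Of the endothelial markers 2 of 3 lay below 1 CPM, with sums of 7.42 to 10.5 over the 4 groups.

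The promoters are shown because E2F words mark this gene class and because CDC6 and FEN1 were the members called lower after both treatments. A RefSeq table of promoters (build GRCh38.p14, 250 bases before to 50 after the start site) held 42 of the 49 members. It has no entry for MCM4, MCM5, GINS4, POLD3, RPA2, RPA3 and CCNE2. The E2F words searched, on both strands, were TTTCCCGC, TTTGGCGC, TTTCGCGC and TTTGCCGC, which can overlap each other where they meet as a palindrome. At least 1 of them lay in a promoter of 23 of the 42 members (54.8%). Some members have more than 1 promoter in the table, and counted by promoter the words lay in 23 of 52 (44.2%), against 3.31% of all 35116 promoters. The commonest was TTTGGCGC, in 11 of the 52 (21.2%) against 0.652% of all. In the windows below the words are in capitals, and the start site lies 250 bases into each full window.
CDC6, chr17:40287629-40287928, plus strand: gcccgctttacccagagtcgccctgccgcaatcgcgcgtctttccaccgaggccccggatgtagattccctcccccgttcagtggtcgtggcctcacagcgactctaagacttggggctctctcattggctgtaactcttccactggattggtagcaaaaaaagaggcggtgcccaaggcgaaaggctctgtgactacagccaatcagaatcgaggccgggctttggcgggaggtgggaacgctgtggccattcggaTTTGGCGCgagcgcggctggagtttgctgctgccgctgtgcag
FEN1, chr11:61792661-61792960, plus strand: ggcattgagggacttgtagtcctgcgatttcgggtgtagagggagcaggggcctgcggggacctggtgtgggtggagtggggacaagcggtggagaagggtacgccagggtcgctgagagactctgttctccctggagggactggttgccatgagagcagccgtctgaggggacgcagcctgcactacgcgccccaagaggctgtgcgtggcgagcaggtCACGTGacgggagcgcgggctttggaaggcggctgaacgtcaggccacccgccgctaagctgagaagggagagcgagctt

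The CDC6 window held TTTGGCGC from 7 to 14 bases after the start site. The FEN1 window held none of the 4 E2F words. Its capitals mark the E-box CACGTG, a palindrome bound by MYC and other helix-loop-helix factors, from 30 to 25 bases before the start site. The E-box was looked for after the FEN1 window had been read, and it lay in 7 of the 52 member promoters (13.5%), those of CHAF1A, FEN1, GMNN, MCM2, MCM7, RPA1 and TIMELESS, against 7.26% of all promoters. Shorter stretches, in the direction of transcription, show the E2F words of 4 members whose values are given below, with the MCM2 stretch holding an E-box as well.
GINS1, chr20:25407668-25407695, plus strand: gctttgttcgGCGCCAAAgcgcggagcg
MCM2, chr3:127598390-127598434, plus strand: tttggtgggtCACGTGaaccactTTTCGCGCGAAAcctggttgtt
MCM6, chr2:135876512-135876605, minus strand: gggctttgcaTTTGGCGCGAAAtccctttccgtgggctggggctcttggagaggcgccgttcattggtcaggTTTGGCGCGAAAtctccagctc
E2F2, chr1:23531258-23531285, minus strand: cggcacgacgTTTGGCGCtaaaaaaaaa

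In MCM6 the pair of words stood as 2 copies of the same block, each reading as an E2F word on both strands, 152 and 90 bases before the start site. Among members called lower after XBP1 knockdown, 15 of 26 with a promoter held an E2F word (57.7%), and among the other members 8 of 16 did (50%). The UPR element core TGACGTGG, to which XBP1s and ATF6 can bind, lay in 0 of 52 member promoters and in 0.729% of all. The ER stress element (CCAAT, 9 bases, CCACG) also lay in 0 of 52, and in 0.0769% of all. These counts describe the letters in this window and no binding was measured.

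After XBP1 knockdown most of the list was lower. In siXBP1 against siCtrl, 29 of 49 members were called lower and 3 higher (GINS3, CCNE1 and POLE), by edgeR's quasi-likelihood test at a Benjamini-Hochberg adjusted p under 0.05. Over all 21021 genes tested, 18.2% were called lower and 16.5% higher. The median log2 fold change was -0.20 over the members and 0.00 over all genes. In each siXBP1 library between 36 and 40 of the 49 members lay below their siCtrl mean. The siCtrl libraries themselves had from 15 (siCtrl-4) to 33 (siCtrl-2) members below that mean. MKC8866 against Vehicle gave another picture: 2 members were called lower (CDC6 and FEN1), where 3.11% of 21045 genes were, and 2 higher (CCNE2 and E2F2), where 1.36% were, and the median was 0.01 against 0.00 over all genes. A share of 2 in 49 (4.08%) is near the background for lower calls. The map of all members by library shows the siXBP1 columns standing apart.

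**Figure D1:**
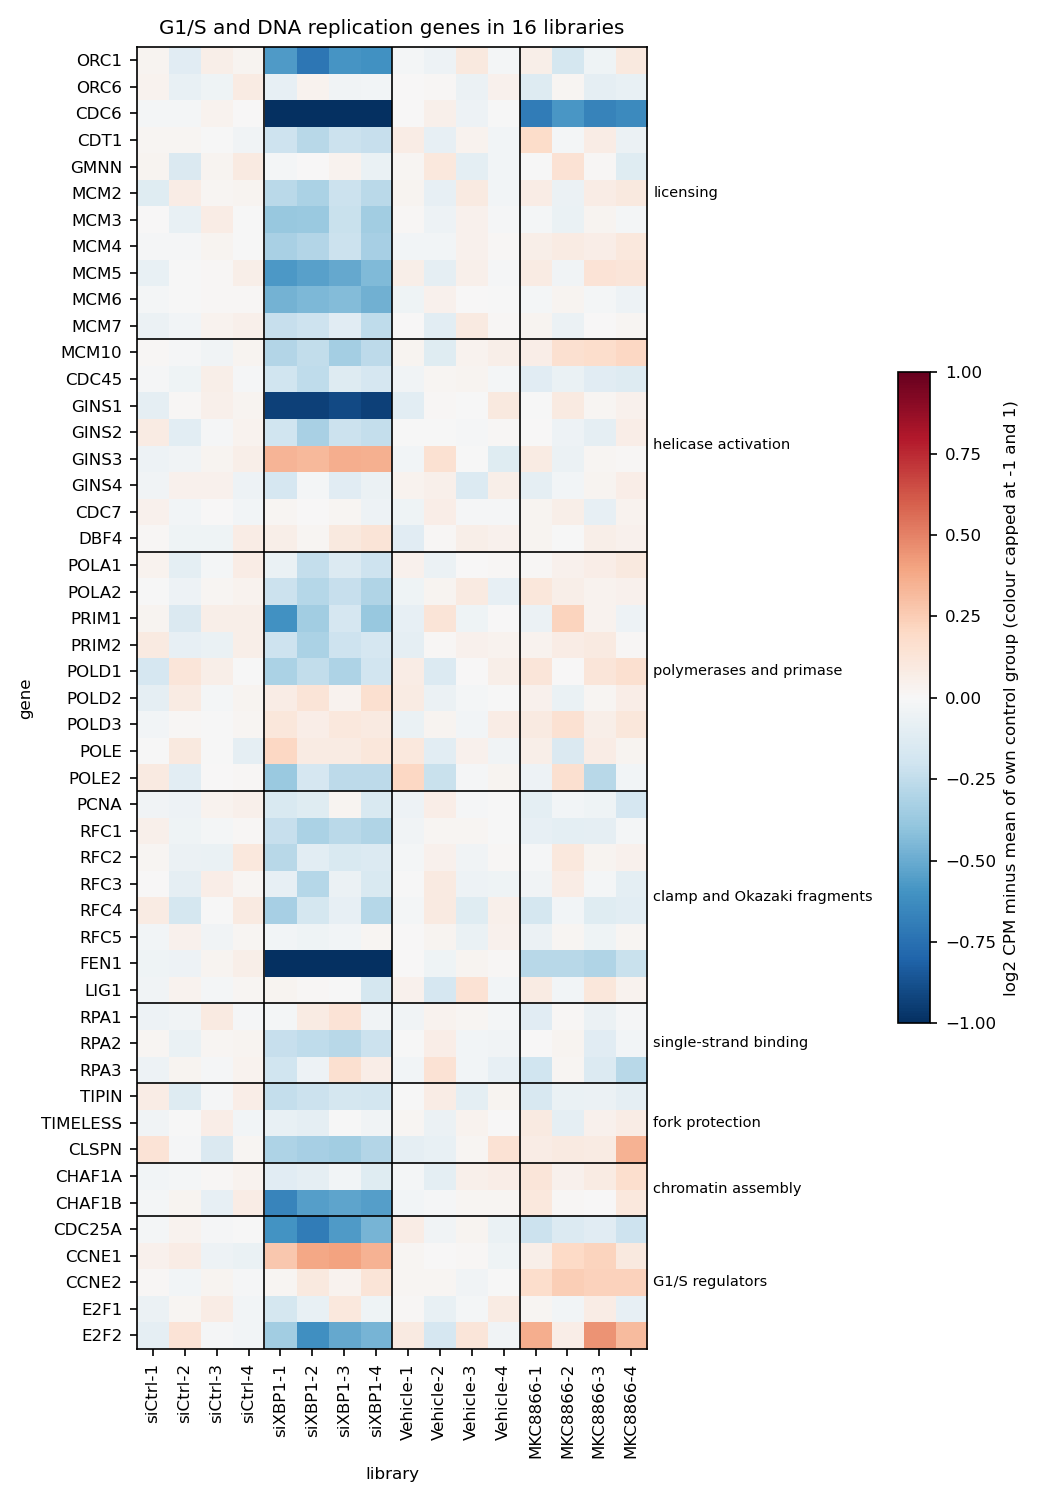
Heat map of the 49 members (rows, grouped by role) in the 16 libraries (columns). Colour is the log2 CPM of a library minus the mean of its own control group (siCtrl or Vehicle), capped at -1 and 1. CDC6 and FEN1 are lower in both siXBP1 and MKC8866 libraries. Below the siCtrl mean lie 36 to 40 members in each siXBP1 library, and 15 to 33 in each siCtrl library.

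Origin licensing was the role with the largest share of lower calls after knockdown, 9 of 11 members (81.8%), with 0 higher. The shares over all genes tested were 18.2% lower and 16.5% higher. CDC6, the ATPase that joins the origin complex to load the ring (ENSG00000094804, chromosome 17, 40287633 to 40304657), changed most of all members. It stood at 231, 231, 239 and 235 CPM in siCtrl and at 85.6, 82.0, 83.9 and 86.8 in siXBP1. Vehicle libraries had 225, 232, 217 and 224 CPM and MKC8866 libraries 138, 150, 141 and 145. Neither treated group overlapped its control, and siXBP1 libraries lay below all MKC8866 libraries. CDC6 fell by 63.9% after knockdown (log2 fold change -1.47, SE 0.0389, adjusted p = 1.19e-17), the 11th smallest p of all genes tested. With MKC8866 it fell by 35.9% (log2 fold change -0.64, SE 0.0398, adjusted p = 4.21e-11), the 28th smallest.

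ORC1, the largest subunit of the origin recognition complex, had 36.2, 32.9, 37.2 and 36.4 CPM in siCtrl and 24.0, 21.6, 23.7 and 23.4 in siXBP1. These groups did not overlap, and ORC1 fell by 35.0% (log2 fold change -0.62, SE 0.0568, adjusted p = 1.07e-08). Vehicle (38.1, 37.2, 41.3 and 38.1 CPM) and MKC8866 (40.2, 34.2, 37.5 and 41.3 CPM) overlapped, with a log2 fold change of -0.01 (95% interval -0.13 to 0.10). ORC6, another subunit, was not called after knockdown (-0.03, interval -0.13 to 0.07) or with MKC8866 (-0.07, interval -0.16 to 0.03). CDT1, which brings the ring to the origin, went from 62.2 ± 1.17 to 52.9 ± 1.21 CPM after knockdown (SD, n = 4, log2 fold change -0.23, adjusted p = 0.00018) and was not called with MKC8866 (0.05). GMNN, the gene of geminin, was at 28.3 ± 1.93 CPM in siCtrl and 28.1 ± 0.857 in siXBP1, with an interval from -0.13 to 0.10 on the log2 scale.

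All 6 subunits of the MCM ring were called lower after knockdown, by unequal amounts. MCM5 fell by 30.1% (log2 fold change -0.52, SE 0.0442, adjusted p = 3.58e-09) and MCM6 fell by 27.3% (-0.46, SE 0.0393, adjusted p = 3.59e-09). The other four gave log2 fold changes of -0.33 for MCM3, -0.29 for MCM4, -0.27 for MCM2 and -0.20 for MCM7. The libraries behind these values were as follows, in CPM and in the order of replicates 1 to 4. MCM5 had 109, 114, 115 and 119 in siCtrl and 76.8, 78.2, 80.0 and 84.3 in siXBP1. MCM6 had 105, 106, 107 and 107 against 76.3, 77.6, 78.4 and 76.0. MCM3 had 146, 139, 154 and 145 against 113, 113, 125 and 114. In none of these 3 genes did the groups overlap. MCM4 had 187, 187, 193 and 189 against 151, 154, 163 and 151. MCM2 had 139, 159, 153 and 154 against 125, 121, 130 and 125. MCM7 had 241, 246, 256 and 259 against 213, 217, 232 and 210. Here too every siXBP1 library lay below every siCtrl library. The share of all genes whose groups separated in this way was not counted, here or for other members.

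With MKC8866 no ring subunit was called by the unblocked test, and the log2 fold changes ran from -0.02 (MCM3) to 0.08 (MCM4). The intervals leave room for small changes only: -0.08 to 0.08 for MCM7, -0.09 to 0.06 for MCM6, -0.09 to 0.06 for MCM3, -0.04 to 0.14 for MCM2, -0.01 to 0.17 for MCM5 and 0.01 to 0.15 for MCM4. In Vehicle MCM5 had 119, 107, 118 and 113 CPM, and in MKC8866 121, 111, 125 and 124, which overlap. MCM6 had 105, 112, 109 and 109 in Vehicle and 107, 111, 107 and 105 in MKC8866. MCM4 had 197, 196, 206 and 202 against 208, 212, 209 and 216. Its MKC8866 libraries all lay above its Vehicle libraries, the opposite side from the knockdown. MCM2 had 158, 146, 165 and 152 against 164, 149, 163 and 166. MCM3 had 150, 144, 153 and 148 against 147, 142, 151 and 147. MCM7 had 259, 240, 274 and 260 against 263, 247, 259 and 262. The groups of MCM2, MCM3 and MCM7 overlapped. Summed over the ring, siCtrl libraries had 927 to 979 CPM, siXBP1 libraries 755 to 808, Vehicle libraries 945 to 1026 and MKC8866 libraries 973 to 1020.

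Per kilobase of exon (FPKM, the CPM divided by the exon length in kilobases), the ring subunits were not at equal level. MCM7 was the highest and MCM5 the lowest in all 4 groups, at 57.1 and 15.6 FPKM in siCtrl, 49.7 and 10.9 in siXBP1, 58.9 and 15.6 in Vehicle and 58.7 and 16.4 in MKC8866. The ratio of highest to lowest was 3.67, 4.57, 3.78 and 3.58 in the same order. The exon length used is the union of all annotated exons of a gene, which differs from the length of the transcripts in use.

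**Figure D2:**
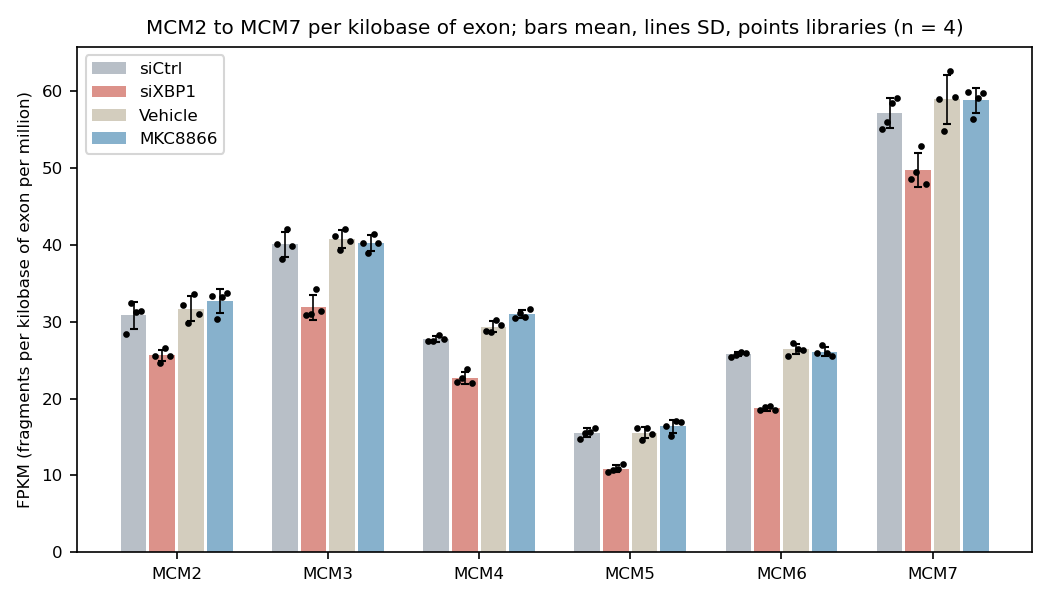
Levels of MCM2 to MCM7 in FPKM (y axis, from 0) in the 4 groups. Bars are means, lines SD and points the 4 libraries of a group. The siXBP1 bar is the lowest of the 4 for each subunit, and MCM5 is the least and MCM7 the most abundant subunit in every group.

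Among the 8 genes of helicase activation, 4 were called lower (50%) and 1 higher (12.5%) after knockdown, beside 18.2% and 16.5% of all genes. GINS1, a subunit of the GINS complex (ENSG00000101003, chromosome 20, 25407727 to 25452628), had 44.3, 47.3, 48.7 and 48.0 CPM in siCtrl and 24.6, 24.6, 25.2 and 24.7 in siXBP1. It had 44.3, 47.9, 47.3 and 51.0 in Vehicle and 47.4, 50.7, 48.1 and 48.9 in MKC8866. Knockdown libraries lay far below their controls and the inhibitor groups overlapped. GINS1 fell by 47.4% after knockdown (log2 fold change -0.93, SE 0.0499, adjusted p = 1.48e-12). With MKC8866 its log2 fold change was 0.04, with an interval from -0.06 to 0.13. The GINS subunits did not move together. GINS2 was called lower (-0.24, adjusted p = 0.00174), GINS3 was called higher (0.34, 12.4 ± 0.450 to 15.8 ± 0.179 CPM, SD, n = 4, adjusted p = 0.000193), and GINS4 was not called (-0.09, interval -0.20 to 0.03). The siCtrl mean of GINS3 also lay below those of Vehicle (15.1 CPM) and MKC8866 (15.2 CPM). Counts of GINS3 and GINS4 are less certain, because other genes on the opposite strand cover 10.9% and 23.6% of their exon bases and the counting did not use strand.

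MCM10, which helps start the helicase, had a log2 fold change of -0.29 after knockdown and CDC45, its core partner, -0.19 (adjusted p = 2.73e-05 and 0.00385). The kinase genes did not pass: CDC7 had 60.1 ± 1.35 CPM in siCtrl and 60.1 ± 1.32 in siXBP1, with an interval from -0.09 to 0.08, and DBF4, its activating subunit, gave 0.07 (interval -0.03 to 0.18). With MKC8866 none of the 8 was called without the block. The MKC8866 libraries of CDC45 (44.7 to 46.6 CPM) still all lay below its Vehicle libraries (47.5 to 49.8), with a log2 fold change of -0.10. Those of MCM10 (50.9 to 56.3 CPM) all lay above its Vehicle libraries (44.8 to 50.6).

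Polymerase and primase genes gave 6 lower calls (66.7%) and 1 higher (11.1%) of 9 after knockdown, beside 18.2% and 16.5% of all genes. The 4 subunits of the polymerase alpha and primase complex, which makes the primers, were all called lower after knockdown: PRIM1 -0.37, POLA2 -0.26, PRIM2 -0.23 and POLA1 -0.16 on the log2 scale. PRIM1 had 24.5, 21.8, 25.05 and 25.1 CPM in siCtrl and 15.8, 18.9, 21.4 and 18.5 in siXBP1. Its groups were separated by the little that lies between 21.4 and 21.8 CPM (adjusted p = 0.00054). Vehicle had 23.7, 27.4, 24.4 and 25.2 CPM of PRIM1 and MKC8866 24.2, 29.4, 25.7 and 24.2, which overlap. POLD1, the catalytic subunit of polymerase delta, was called lower (-0.27, adjusted p = 0.00069), while its partners POLD2 (0.10, interval 0.01 to 0.18, adjusted p = 0.0822) and POLD3 (0.09, adjusted p = 0.138) were not called. For polymerase epsilon, POLE2 was called lower (-0.26, adjusted p = 0.0189) and the catalytic subunit POLE higher (0.12, adjusted p = 0.0449).

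The calls of POLE, POLE2 and POLA1 were lost when certain libraries were left out. POLE was no longer called without siCtrl-1, siCtrl-3, siCtrl-4, siXBP1-1 or siXBP1-4 (log2 fold changes of 0.13, 0.12, 0.10, 0.10 and 0.13), nor in the fit of all 16 libraries (0.12, adjusted p = 0.0712). POLE2 was not called without siCtrl-1 or siXBP1-1 (-0.23 in each case), nor POLA1 without siCtrl-4, siXBP1-2 or siXBP1-4 (-0.13, -0.13 and -0.14). Leaving out siCtrl-2 or siXBP1-3 brought POLD2 past the threshold as a higher call (0.14 and 0.12), as did the filter of at least 10 counts in every library (0.11, adjusted p = 0.0445).

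The clamp, its loader and the enzymes of Okazaki fragments gave 4 lower calls of 8 (50%) after knockdown, beside 18.2% of all genes. FEN1, the flap endonuclease that trims Okazaki fragments before ligation (ENSG00000168496, chromosome 11, 61792637 to 61797244), was the member with the second largest fall. It had 91.3, 90.6, 95.6 and 97.9 CPM in siCtrl and 34.3, 41.3, 41.8 and 38.3 in siXBP1. Vehicle libraries had 93.4, 90.4, 95.2 and 94.2 CPM and MKC8866 libraries 77.1, 77.0, 75.7 and 79.8. Treated and control libraries did not overlap in either experiment. FEN1 fell by 58.5% after knockdown (log2 fold change -1.27, SE 0.0554, adjusted p = 4.22e-14) and fell by 16.9% with MKC8866 (-0.27, SE 0.0413, adjusted p = 0.00011). Of its exon bases 6.7% are shared with TMEM258 on the opposite strand and 1.98% with FADS2. Fragments in such shared stretches were left out when they hit both genes, and TMEM258 gave log2 fold changes of -0.38 and -0.37 in the 2 comparisons and FADS2 -0.27 and 0.04.

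LIG1, the ligase that closes the nicks after FEN1, was not called (-0.03 after knockdown, interval -0.14 to 0.07), and neither was PCNA, the clamp itself (-0.10, interval -0.19 to -0.01, adjusted p = 0.112). PCNA passed the threshold when siXBP1-3 was left out (-0.14). In the clamp loader, RFC1, the largest subunit, had the clearest change (199 ± 5.29 to 164 ± 4.38 CPM, SD, n = 4, -0.28, adjusted p = 4.55e-06). RFC4 (-0.22) and RFC2 (-0.17) were called lower too, whereas RFC3 (-0.14, adjusted p = 0.052) and RFC5 (-0.02) were not. The call of RFC4 was lost without siCtrl-4, siXBP1-1 or siXBP1-4 (-0.18, -0.18 and -0.19) and that of RFC2 without siCtrl-4 or siXBP1-1 (-0.12 and -0.13). RFC3 passed without siCtrl-2 or siXBP1-3 (-0.16 and -0.17), with a replicate block (adjusted p = 0.0275) and in the fit of all 16 libraries (adjusted p = 0.0336). With MKC8866 the 7 genes of this role other than FEN1 were not called, and their log2 fold changes ran from -0.11 (RFC4) to 0.05 (LIG1).

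The single-strand binding protein RPA has 3 subunits in the list. RPA1, the large subunit, had 99.4, 101, 109.5 and 102 CPM in siCtrl and 102, 109, 113 and 101 in siXBP1. Vehicle had 96.4 to 101 CPM and MKC8866 91.3, 99.7, 94.7 and 97.9. Each treated group overlapped its own control, and the log2 fold changes were 0.04 (interval -0.05 to 0.13) and -0.04 (interval -0.12 to 0.04). RPA2 was called lower after knockdown (-0.25, adjusted p = 8.14e-05). RPA3 gave 0.00 after knockdown (interval -0.14 to 0.14) and -0.15 with MKC8866 (interval -0.28 to -0.01, adjusted p = 0.329).

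Of the fork protection genes, which hold the helicase and polymerases together and pass checkpoint signals, CLSPN (-0.33, adjusted p = 5.66e-05) and TIPIN (-0.20, adjusted p = 0.0072) were called lower after knockdown. TIMELESS, the partner of TIPIN, had 151, 154, 161 and 151 CPM in siCtrl, 146, 145, 154 and 150 in siXBP1, 156, 148, 158 and 154 in Vehicle and 164, 145, 159 and 162 in MKC8866. Each treated group overlapped its own control here too, with log2 fold changes of -0.05 (interval -0.13 to 0.03) and 0.03 (interval -0.05 to 0.12). For TIPIN the pseudogene RPL9P25 covers 21.02% of its exon bases on the same strand.

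Chromatin assembly factor CAF-1, which deposits histones behind the fork, is present with both of its replication-specific subunits. CHAF1B had 43.7, 45.0, 41.7 and 46.6 CPM in siCtrl and 28.1, 30.2, 30.7 and 30.2 in siXBP1. It had 43.9, 44.5, 45.3 and 45.4 CPM in Vehicle and 48.2, 45.1, 45.0 and 48.2 in MKC8866. Knockdown and control did not overlap, and CHAF1B fell by 32.7% (log2 fold change -0.57, SE 0.0521, adjusted p = 1.02e-08). The inhibitor groups overlapped, with a log2 fold change of 0.06 (interval -0.03 to 0.15). CHAF1A, its larger partner, was not called (-0.09, interval -0.17 to -0.00, adjusted p = 0.12). MORC3 shares 1.74% of the exon bases of CHAF1B and gave a log2 fold change of 0.85 in the same comparison.

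**Figure D3:**
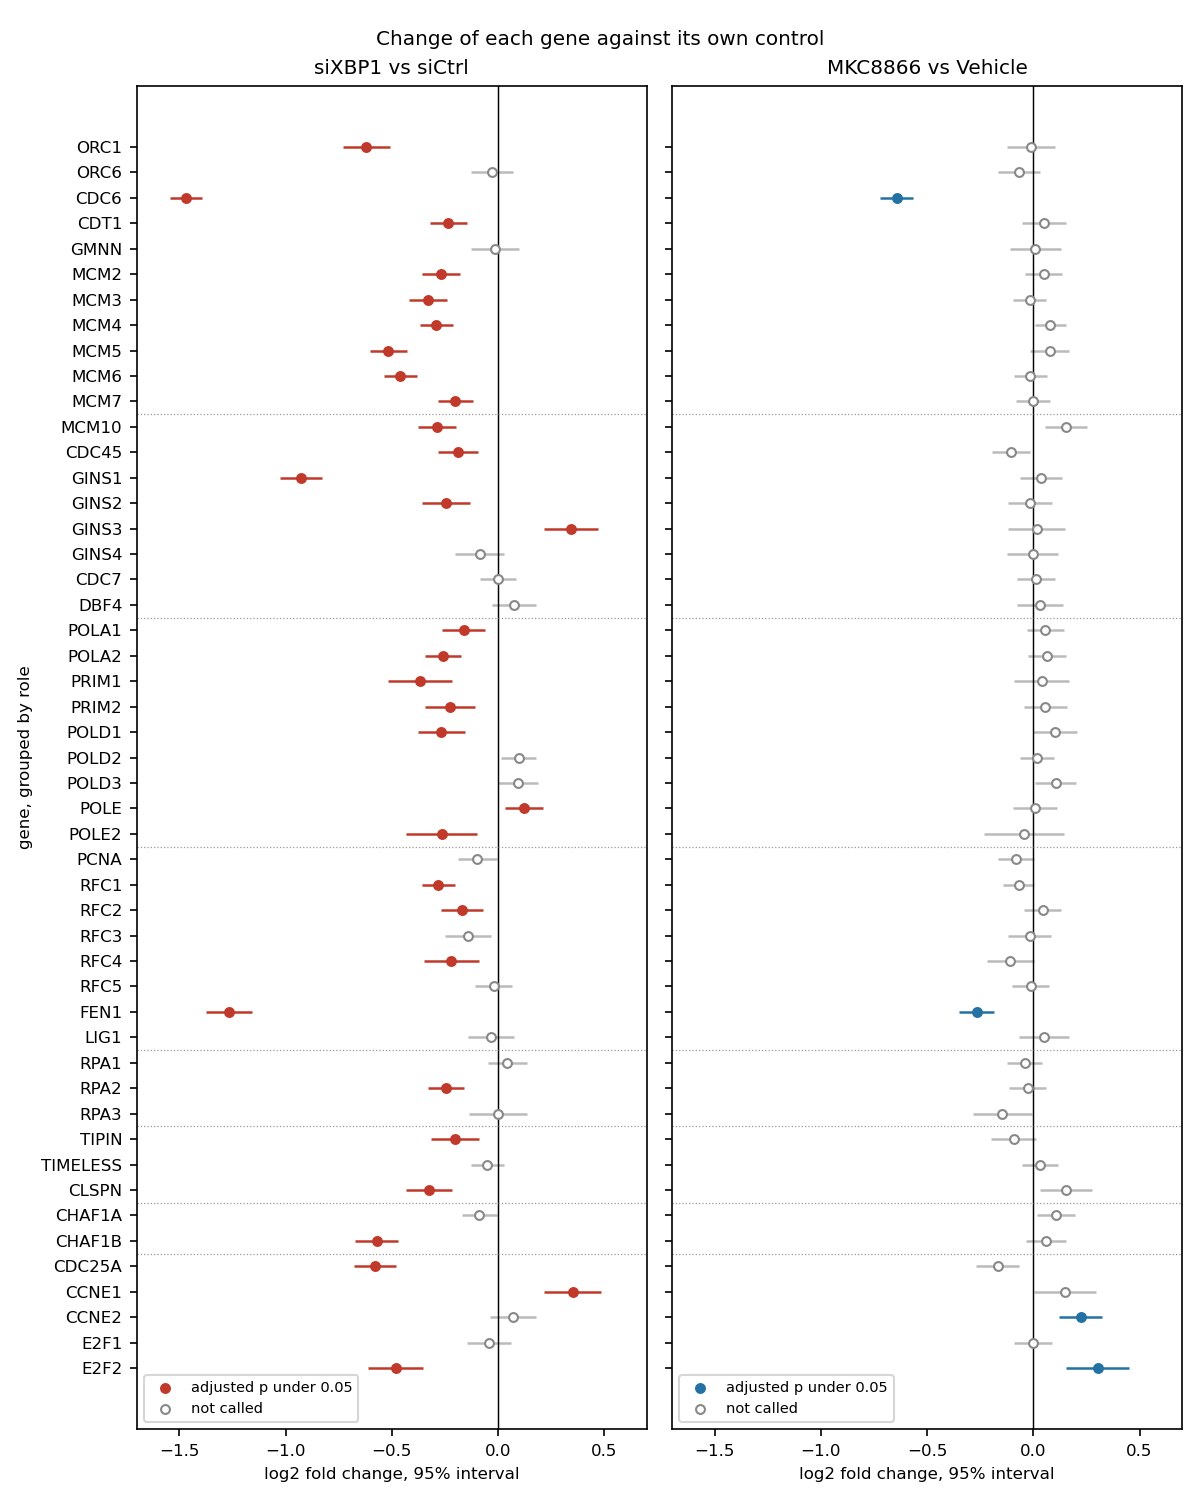
Log2 fold change of each member (y axis, grouped by role) in siXBP1 against siCtrl (left) and MKC8866 against Vehicle (right), with 95% intervals as lines. Filled points passed an adjusted p under 0.05 and open points did not. There are 29 filled points left of 0 and 3 right of it on the left panel, and 2 on each side on the right panel.

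The 5 G1/S regulators did not share a direction. CDC25A, the phosphatase that activates CDK2, had 60.3, 62.5, 60.6 and 61.1 CPM in siCtrl and 40.4, 37.7, 41.3 and 44.2 in siXBP1, and fell by 33.1% (log2 fold change -0.58, SE 0.0505, adjusted p = 5e-09). It had 39.6, 36.9, 38.3 and 36.0 CPM in Vehicle and 32.5, 34.2, 34.8 and 32.6 in MKC8866. All MKC8866 libraries lay below all Vehicle libraries, but the log2 fold change of -0.17 (SE 0.0513) had an adjusted p of 0.0687. CDC25A passed with the replicate number as a block (adjusted p = 0.00348), with DESeq2 (adjusted p = 0.0381) and without MKC8866-2 (-0.18).

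E2F2, a transcription activator of this gene class, went in opposite directions in the 2 experiments, each against its own control. The controls were not level: siCtrl had a mean of 27.6 CPM and Vehicle 20.5, near the 19.7 of siXBP1. It had 25.8, 30.2, 27.2 and 26.9 CPM in siCtrl and 21.7, 18.01, 19.3 and 19.9 in siXBP1, with no overlap, and fell by 28.4% (log2 fold change -0.48, SE 0.0658, adjusted p = 4.07e-06). Vehicle libraries had 21.7, 18.2, 22.2 and 19.9 CPM and MKC8866 libraries 26.3, 21.4, 27.9 and 25.5. These overlapped, since replicate 2 was the lowest library of both groups. The log2 fold change was 0.30 (SE 0.0753, adjusted p = 0.0166), and with the block the adjusted p was 5.68e-06. Without the block the call was lost when Vehicle-2, Vehicle-4, MKC8866-1, MKC8866-3 or MKC8866-4 was left out (0.25, 0.29, 0.28, 0.25 and 0.29).

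CCNE2, a cyclin E gene, had 22.9, 22.3, 23.2 and 22.6 CPM in siCtrl, 23.1, 24.4, 23.3 and 24.9 in siXBP1, 24.9, 24.9, 23.9 and 24.5 in Vehicle and 27.7, 29.1, 28.7 and 28.8 in MKC8866. The inhibitor libraries lay above all Vehicle libraries (log2 fold change 0.22, SE 0.0522, adjusted p = 0.0102), and the call was lost without Vehicle-3 (0.21). After knockdown the log2 fold change was 0.07 (interval -0.04 to 0.18). INTS8, on the opposite strand, covers 37.0% of the exon bases of CCNE2, and its own log2 fold changes were -0.04 and 0.04. The other cyclin E gene, CCNE1, was called higher after knockdown (12.2 ± 0.580 to 15.6 ± 0.627 CPM, SD, n = 4, log2 fold change 0.35, adjusted p = 0.000261) and was not called with MKC8866 (0.15, interval 0.00 to 0.30). E2F1, the founding E2F gene, was not called in either (-0.04, interval -0.15 to 0.06, and -0.00, interval -0.09 to 0.09).

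**Figure D4:**
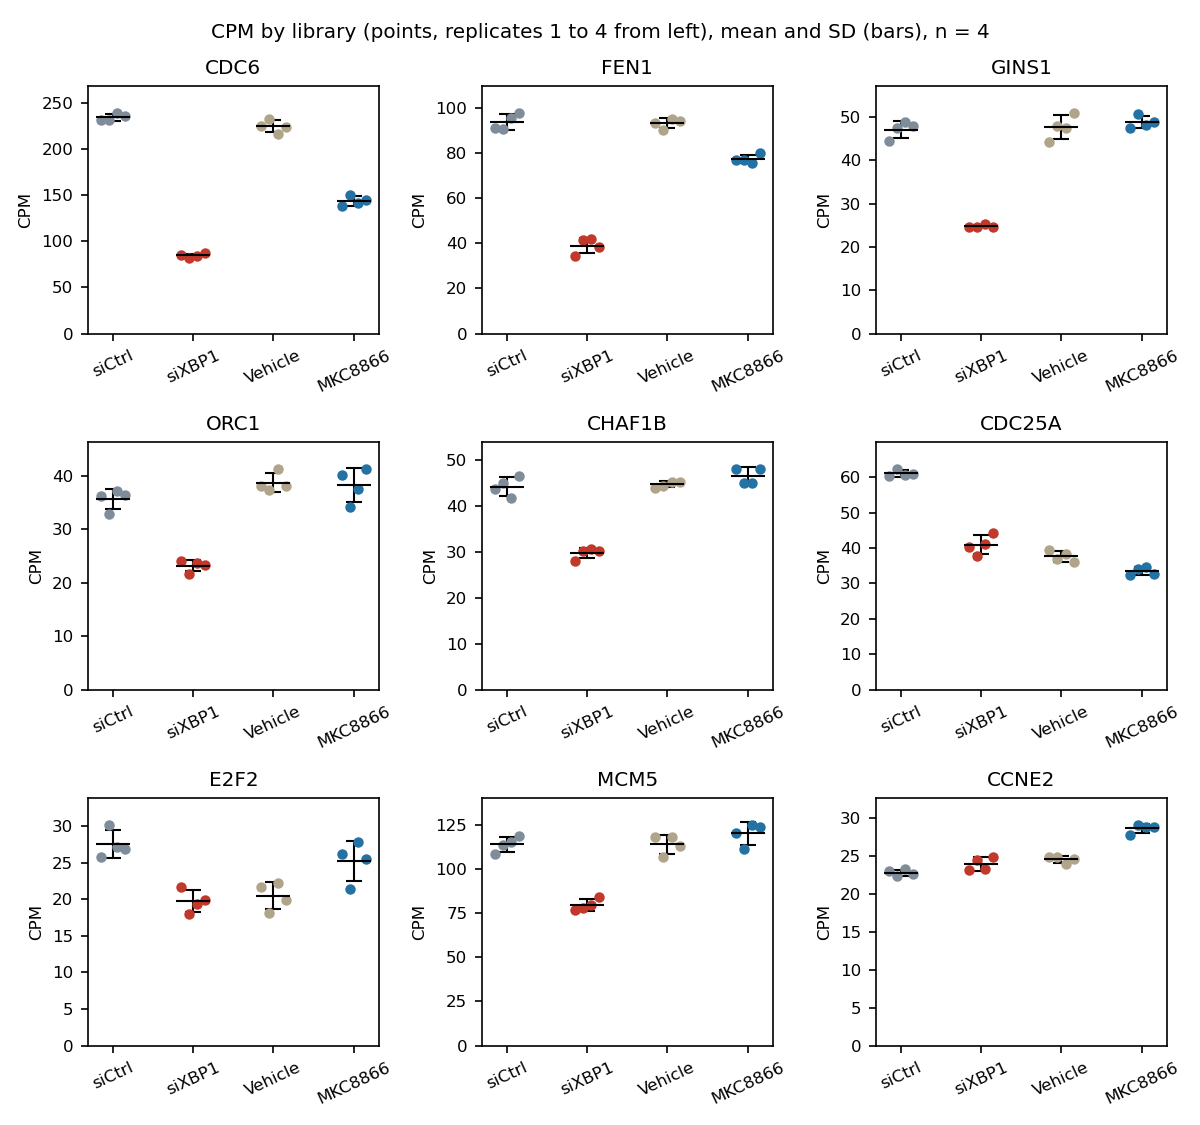
CPM of 9 members in every library (points, replicates 1 to 4 from left to right within a group) with the group mean and SD (n = 4), on axes that start at 0. CDC6 and FEN1 are lower in both treated groups, GINS1, ORC1, CHAF1B and MCM5 in siXBP1 only among the called changes, and CDC25A and E2F2 stand higher in siCtrl than in Vehicle.

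The inhibitor libraries with the same number deviated together, so the same comparison was also made with the number as a block. It then called 3 members lower (CDC6, FEN1 and CDC25A), where 7.05% of all genes were lower, and 7 higher, where 6% were higher. The added higher members were MCM10 (0.15, adjusted p = 0.00289), CLSPN (0.15, adjusted p = 0.00229), CHAF1A (0.11, adjusted p = 0.0120), POLD1 (0.10, adjusted p = 0.0435) and MCM4 (0.08, adjusted p = 0.0225). Of these, MCM10, CLSPN, POLD1 and MCM4 were called lower after knockdown. The largest of these 5 changes was 11.2%, for MCM10.

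The 2 responses were set against each other in a fit of all 16 libraries, as the knockdown effect minus the inhibitor effect. The difference was called for 27 of 49 members, 26 of them lower after knockdown than the inhibitor response and 1, GINS3, higher. Over all 20357 genes tested 12.7% differed in the lower direction and 10.6% in the higher. The median difference was -0.21 over the members and 0.01 over all genes. FEN1 (-0.999, SE 0.0687), GINS1 (-0.96, SE 0.0680) and CDC6 (-0.82, SE 0.0525) had the largest differences, followed by E2F2 (-0.78), CHAF1B (-0.63) and ORC1 (-0.61). For CDC6 and FEN1 the difference means that both fell, and fell further with the siRNA. All ring subunits were in this set, from -0.59 for MCM5 to -0.20 for MCM7. Calls for GINS2, RFC2 and CHAF1A were less stable. That of GINS2 (-0.23) was lost without siCtrl-1, siXBP1-2 or MKC8866-4 (-0.20 in each case) and with no filter on low counts (-0.23, adjusted p = 0.0667), that of RFC2 (-0.21) without siCtrl-4 or siXBP1-1 (-0.17 and -0.18), and that of CHAF1A (-0.19) without MKC8866-4 (-0.17). The kind of treatment, its length and the experiment cannot be told apart here. Of the 29 members lower after knockdown 2 were also lower with MKC8866, where 3.11% of all genes were called lower. They were 2 of the 2 members lower there, while 1 was higher (E2F2) and 26 were not called. A missing call with MKC8866 does not by itself show a different response. The difference was not called for CDC45 (-0.08), TIPIN (-0.11), RFC4 (-0.11) and POLE2 (-0.22). Their log2 fold changes with MKC8866 were -0.10, -0.09, -0.11 and -0.05. With the block CDC25A was lower in both as well.

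The control groups, siCtrl and Vehicle, were close for most members. Of 49 members 1 was lower in siCtrl (GINS3, -0.27, adjusted p = 0.0101), where 6.34% of 21092 genes were lower, and 3 were higher, where 7.66% were. Those 3 were G1/S regulators: CDC25A (0.70, adjusted p = 8.64e-11), CCNE1 (0.46, adjusted p = 9.82e-05) and E2F2 (0.43, adjusted p = 5.48e-05). For CDC25A the siXBP1 mean of 40.9 ± 2.71 CPM thus lay nearer to Vehicle (37.7 ± 1.58) than to siCtrl (61.1 ± 0.965), and for E2F2 siXBP1 had 19.7 ± 1.52, Vehicle 20.5 ± 1.85 and siCtrl 27.6 ± 1.88 (SD, n = 4). GINS3 had a mean of 15.8 CPM in siXBP1, 15.1 in Vehicle and 15.2 in MKC8866, against 12.4 in siCtrl. CDC6 (0.07), FEN1 (0.02), GINS1 (-0.01) and CHAF1B (-0.01) were not called between controls. Transfection, time and experiment cannot be told apart in this comparison, and it shares its libraries with both others.

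Ordered by FPKM over all groups, POLD2 (86.9), PCNA (71.1) and MCM7 (56.1) were the most abundant members and GINS4 (4.05), GINS3 (2.87) and POLE2 (2.80) the least. Other genes cover 23.6% of the exon bases of GINS4 and 10.9% of those of GINS3. Fragments that hit 2 genes were left out while the full length was used. The FPKM of GINS4 and GINS3 may therefore be too low, and the place of GINS4 in the order is uncertain. CDC6 stood at 45.7 FPKM in siCtrl, 16.5 in siXBP1, 43.8 in Vehicle and 28.1 in MKC8866. In siCtrl it was thus above MCM3 (40.0) and in siXBP1 below it (31.9). GINS3, the weakest of the subunits of its complex, was at 2.43 FPKM in siCtrl beside 11.6 for GINS1, and at 3.09 beside 6.09 in siXBP1.

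Related genes outside the list were counted in the same way. Over all genes tested, 18.2% were called lower and 16.5% higher after knockdown. With MKC8866 the shares were 3.11% and 1.36%, and with the block 7.05% and 6%. Of 25 tested G1 control genes (cyclins D, CDKs, CDK inhibitors, the RB family and other E2Fs), 8 were called lower (32%) and 3 higher (12%) after knockdown. With MKC8866 2 were called each way (8%), and 5 lower and 3 higher with the block. Their median log2 fold change after knockdown was 0.01. The changes beyond 0.5 were those of E2F4 (-0.59), an E2F of resting cells, and CCND1 (-0.56), the cyclin D1 gene. CDKN1B, which encodes the CDK inhibitor p27, was lower in both comparisons (-0.34 and -0.39). CDKN1A, another CDK inhibitor gene, lay the other way after knockdown, at 323 to 347 CPM in siCtrl and 374.5 to 394 in siXBP1. Its Vehicle (280 to 302) and MKC8866 (271 to 288) libraries overlapped. Of 30 other replication genes, 10 were lower (33.3%) and 3 higher (10%) after knockdown. With MKC8866 1 was called each way (3.33%), and 1 lower and 4 higher with the block. The medians were -0.07 after knockdown and 0.03 with MKC8866. PCLAF, a PCNA-binding factor, had the largest fall (4.79 ± 0.359 to 2.23 ± 0.373 CPM, SD, n = 4, log2 fold change -1.10), and DTL, which directs destruction of CDT1 at PCNA, fell by 0.43 on the log2 scale. CDKN1B, CDKN1A and DTL changed by less than 0.5, and other related genes below that size are not listed.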

How the data were processed

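RNA-seq libraries of LNCaP cells (4 groups of 4) were prepared by the authors with a stranded kit, aligned to hg38 with STAR 2.5.2a and summarised with featureCounts (1.5.0 in the submitters' processing notes, 1.5.0-p3 in the file header) on Ensembl release 85. The deposited values are raw fragment counts for each gene, not normalized, and the counting ignored strand. Depth was 28713607 to 34509488 fragments per library (median 30743136). The spread between libraries (biological coefficient of variation 5.40% and 4.97%) limits precision for the members with most counts, and counting error is of similar size for the weakest, such as POLE2 and CCNE1.

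Groups were taken from the sample titles. Each treatment was tested against its own control with edgeR 4.0.16 in R 4.3.3 (TMM, quasi-likelihood F test, two-sided) where at least 1 library of each group exceeded 5 counts. Calls were made at a Benjamini-Hochberg adjusted p below 0.05 over all genes tested. The difference of responses was the interaction of treatment and experiment over the 16 libraries together, which share 1 estimate of spread. Standard errors came from the fold change and its F statistic, and intervals are 1.96 SE either side (95%). CPM used TMM-scaled library sizes of all 16 libraries, and FPKM divided it by the exon length deposited with the counts. The scripts were tested on simulated data. Alternatives were DESeq2 1.42.0, RLE size factors, no filter, at least 10 counts in every library, all 16 libraries in 1 fit, the replicate number as a block, and each library left out.

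Numbers appear to pair the libraries in the inhibitor experiment. Deviations from group means of same-numbered libraries correlated at 0.21, 0.38, 0.10 and 0.23 over 15037 genes. Pairs with different numbers ran from -0.25 to 0.16. MKC8866-1 with Vehicle-3 (0.16) and MKC8866-3 with Vehicle-1 (0.14) lay above the pair numbered 3. The pairing is thus a hint from the data, since the labels do not state what the numbers share. Although the rule for the members uses no measured value, the members and all gene lists were chosen with earlier results of these data known. Values in every library are given for 17 members: the 10 largest called changes after knockdown, up to 10 with MKC8866 and 6 differences of response, the MCM ring, and the member of highest CPM in each role left over. Other members are named with their values since the list was given. Promoters were scanned for exact words without a test.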

Additional observations from a re-analysis of the deposited data

Results flagged for a closer look

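Values of single libraries that stood apart from the other 3 of their group were found in 3 of 72 groups tested, about the 1 in 20 that chance gives (Dixon's test). These were MCM2 in MKC8866-2 (149 CPM, lowest of its group), MCM3 in siXBP1-3 (125.1 CPM, highest) and GINS1 in siXBP1-3 (25.17 CPM, highest).

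The response to XBP1 knockdown minus that to MKC8866 differed for 27 members by the interaction test, on the log2 scale. In licensing the differences were -0.61 (ORC1), -0.82 (CDC6), -0.28 (CDT1), -0.32 (MCM2), -0.31 (MCM3), -0.37 (MCM4), -0.59 (MCM5), -0.44 (MCM6) and -0.20 (MCM7). In helicase activation they were -0.44 (MCM10), -0.96 (GINS1), -0.23 (GINS2) and 0.33 (GINS3). Polymerase and primase genes gave -0.22 (POLA1), -0.32 (POLA2), -0.41 (PRIM1), -0.28 (PRIM2) and -0.37 (POLD1). For the clamp loader and Okazaki fragments they were -0.21 (RFC1), -0.21 (RFC2) and -0.999 (FEN1). The remaining members were RPA2 (-0.22), CLSPN (-0.48), CHAF1A (-0.19), CHAF1B (-0.63), CDC25A (-0.41) and E2F2 (-0.78). Experiment and kind of treatment cannot be told apart in any of these.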

How the results depend on the processing

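No member changed direction in a called result under any alternative run. After knockdown the lower calls numbered 26 to 31 and the higher calls 2 to 4 over the fits that left out 1 library, 28 to 35 in all, with a median of -0.23 to -0.18. The replicate block gave 30 lower and 3 higher there, though the numbers do not pair libraries in that experiment (correlations of 0.00 to 0.07), nor in siCtrl against Vehicle (-0.16 to 0.13). With MKC8866 the block gave 10 calls in place of 4, with 7 higher, and leaving out 1 library gave 3 to 5 calls, 2 or 3 lower and 1 or 2 higher, with a median of 0.0019 to 0.0186. In siCtrl against Vehicle, DESeq2, the filter of at least 10 counts in every library and the fit of all 16 libraries each called 7 members, 4 of them lower (GINS3, ORC6, POLD3 and RFC5), and leaving out 1 library gave 4 or 5, with 1 or 2 lower. The difference of responses gave 25 to 27 calls, 24 to 26 lower and 1 higher, with a median of -0.2216 to -0.1652, the last without Vehicle-2. With the block the MKC8866 calls of the related genes went from 2 to 5 lower among G1 control genes and from 1 to 4 higher among other replication genes. Over all genes the block moved lower calls from 3.11% to 7.05% and higher calls from 1.36% to 6%. Over the members it moved no count beyond 1.5 times in the other 3 comparisons. The causes of these shifts were not tested.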
